A study of Mus musculus with 2 samples.

Results

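Dusp1, Dusp2, Dusp4, Dusp5, Dusp6, Dusp10, Spry1, Spry2 and Spred1 are feedback regulators of mitogen-activated protein (MAP) kinase signaling. These 9 genes, of 32285 gene rows in the count matrix, were chosen by name, with earlier results of these data known. They were followed through the thymus cells that were sorted as invariant natural killer T (iNKT) cells from mice of both genotypes, Ctrl and T-KO. T-KO mice carry Kidins220 fl/fl alleles and a Cre driven by the proximal Lck promoter, so that the gene is deleted in T lineage cells only, and both genotypes are on a C57BL/6 background. The labels give no age for the mice of this experiment. The cells were TCRβ+ and bound by the CD1d tetramer, and were sorted as stage 0 (CD24+ and NK1.1-) or stage 3 (NK1.1+, CD44+ and CD24-). Each pool held the thymi of 4 mice, 2 pools were made per genotype and stage, and the 8 populations were stained with hashtag antibodies, combined and read as 1 droplet library of transcript 5′ ends. Its values are counts of unique molecular identifiers (UMIs).

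The hashtag label assigns hashtags 1, 3 and 5 to stage 0 and hashtags 2, 4 and 6 to stage 3, whereas the counts lie on the hashtag rows numbered 11 to 18. No source used here pairs those rows with the hashtags, and no row was assigned a stage or genotype. Klrb1c and Cd24a, which encode markers of the sort, nevertheless split the rows by number, with values given below. Klrb1c was higher in the even rows, as in a stage 3 sort, and Cd24a in the odd rows, as in a stage 0 sort. No such split is known for genotype. Values are therefore given for each row. Odd rows (11, 13, 15 and 17) are set against even rows (12, 14, 16 and 18) by number, and there is no test of T-KO against Ctrl. Rows are not known to be replicates of a group, so no p-value is given, and the intervals printed are exact 95% Poisson intervals, which cover counting error only.

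ERK, the last kinase of the Ras, Raf and MEK cascade, is switched on in thymocytes by the T cell receptor and is switched off by products of genes that it induces. Dual-specificity phosphatases (DUSPs) remove phosphate from MAP kinases: Dusp1, Dusp2 and Dusp4 encode nuclear enzymes that act on ERK as well as on JNK and p38, Dusp5 encodes a nuclear and Dusp6 a cytoplasmic enzyme that prefer ERK, and Dusp10 encodes an enzyme that prefers JNK and p38. Sprouty (Spry1, Spry2) and Spred (Spred1) proteins act further up, where they restrain Ras and Raf. The strength and length of the ERK signal are known to influence thymocyte selection.

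After the filters, which required at least 1000 genes, at most 5% mitochondrial UMIs and at least 80% of at least 10 hashtag UMIs on 1 of the rows 11 to 18, 10007 of 12147 barcodes were assigned to a row. The rows held 577 to 2162 cells. Cells of the odd rows had a median of 6500 to 8068 UMIs per row and those of the even rows 3258 to 3804. Expression was summed over the cells of a row and is given as CPM, the count in a total scaled to 1000000, of the UMIs left after ribosomal and Gm genes were taken out. The targeted gene, Kidins220, had 17.4 to 26.2 CPM in the odd rows and 22.9 to 46.4 CPM in the even rows, so no row lacked its transcript. Klrb1c, which encodes NK1.1, had 5.95 to 8.02 CPM in the odd rows and 429 to 576 CPM in the even rows. Cd24a, the gene of another sort marker, went the other way, with 382 to 455 CPM in the odd rows and 30.2 to 45.4 CPM in the even rows. Trav11, the variable segment of the invariant iNKT receptor chain, was at 0.256 to 1.42 CPM in the odd rows and 52.4 to 73.2 CPM in the even rows, so this defining iNKT transcript was near 0 in the odd rows, and Zbtb16, which encodes the iNKT factor PLZF, had 5.76 to 9.26 and 86.0 to 98.7 CPM. The study's methods name a poor tetramer stain in this sort. The summed level of 7 B cell markers was 856 to 1958 CPM in the odd rows and 311 to 356 CPM in the even rows, and that of 7 myeloid markers was 3165 to 9036 and 986 to 1192 CPM.

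The sequences before the start sites of the genes that the comparisons turn on are shown first, since Dusp1 and Dusp2 were both far higher in the even than in the odd rows, Dusp5 followed in part, and Spry1 had the opposite pattern. RefSeq (GRCm38.p6, the build also called mm10) gave such a window for 8 of the 9 members. Each line is the 250 bases before the annotated start, 5′ to 3′ on the strand of the gene, with a cAMP response element (CRE, TGACGTCA), an E-box (CACGTG) and serum response (CArG) boxes in capitals. The Dusp1 window is chr17:26508473-26508722 (minus strand), that of Dusp2 chr2:127335909-127336158 (plus strand), that of Dusp5 chr19:53528895-53529144 (plus strand) and that of Spry1 chr3:37639697-37639946 (plus strand).
Dusp1: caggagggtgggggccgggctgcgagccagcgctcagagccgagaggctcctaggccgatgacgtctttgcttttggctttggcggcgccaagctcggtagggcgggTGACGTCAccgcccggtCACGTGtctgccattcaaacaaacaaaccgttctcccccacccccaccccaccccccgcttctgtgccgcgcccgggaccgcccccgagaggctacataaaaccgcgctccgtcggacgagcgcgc
Dusp2: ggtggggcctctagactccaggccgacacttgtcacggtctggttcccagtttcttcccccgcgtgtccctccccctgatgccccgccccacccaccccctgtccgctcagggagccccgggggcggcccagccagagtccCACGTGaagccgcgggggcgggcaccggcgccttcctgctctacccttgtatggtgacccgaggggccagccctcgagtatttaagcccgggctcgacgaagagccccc
Dusp5: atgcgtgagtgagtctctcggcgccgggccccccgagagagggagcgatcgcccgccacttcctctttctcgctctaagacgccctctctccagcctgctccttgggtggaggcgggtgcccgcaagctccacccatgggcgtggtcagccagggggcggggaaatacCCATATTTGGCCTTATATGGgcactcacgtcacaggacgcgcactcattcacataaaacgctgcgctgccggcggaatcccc
Spry1: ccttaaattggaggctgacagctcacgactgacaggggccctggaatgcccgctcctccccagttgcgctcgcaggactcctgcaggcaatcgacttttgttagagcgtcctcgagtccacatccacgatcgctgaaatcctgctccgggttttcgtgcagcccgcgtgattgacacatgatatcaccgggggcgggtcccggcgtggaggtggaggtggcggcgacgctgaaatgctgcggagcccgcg

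The CRE lay 143 to 136 bases before the start of Dusp1 and in none of the other 7 windows, and 1.55% of all 32851 windows held it on either strand. The E-box lay 126 to 121 bases before the start of Dusp1 and 109 to 104 bases before that of Dusp2, and 6.02% of all windows held it. Adjacent CArG boxes, found in 1.47% of all windows, lay 82 to 73 and 72 to 63 bases before the start of Dusp5. The Spry1 window held none of these 3 motifs. The shorter letters TGACG, which are also part of the CRE, occurred 191 to 187 bases before the start of Dusp1 and, on the other strand, 55 to 51 bases before that of Dusp5, against 17.8% of all windows. GGAAA, the core of NFAT sites, occurred in the windows of Dusp5, Dusp6, Spry2 and Spred1, against 55.6% of all windows, and the AP-1 letters TGANTCA, found in 6.75%, in none of the 8. A match is a description of letters, and no binding was measured.

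The members fell into opposite patterns between the row numbers. Dusp1, Dusp2, Dusp5, Dusp6 and Spry2 were higher in every even row than in any odd row, and Dusp4, Dusp10, Spry1 and Spred1 were lower in every even row than in any odd row. Of 10127 genes with a mean of at least 5 CPM over the rows, 27.9% had all even rows above all odd rows and 30.5% had them all below, so that a majority of all genes separated the row numbers. With a ratio of the medians of at least 2 as well, 4 members were above (Dusp1, Dusp2, Dusp6 and Spry2) against 10.2% of all genes, and 3 below (Dusp4, Spry1 and Spred1) against 14.9%. All 9 members passed the minimum of 5 CPM, but Dusp4, Spry1, Spry2 and Spred1 did so through the rows in which they were high. The median log2 ratio of even to odd rows over all genes was -0.06.

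**Figure D1:**
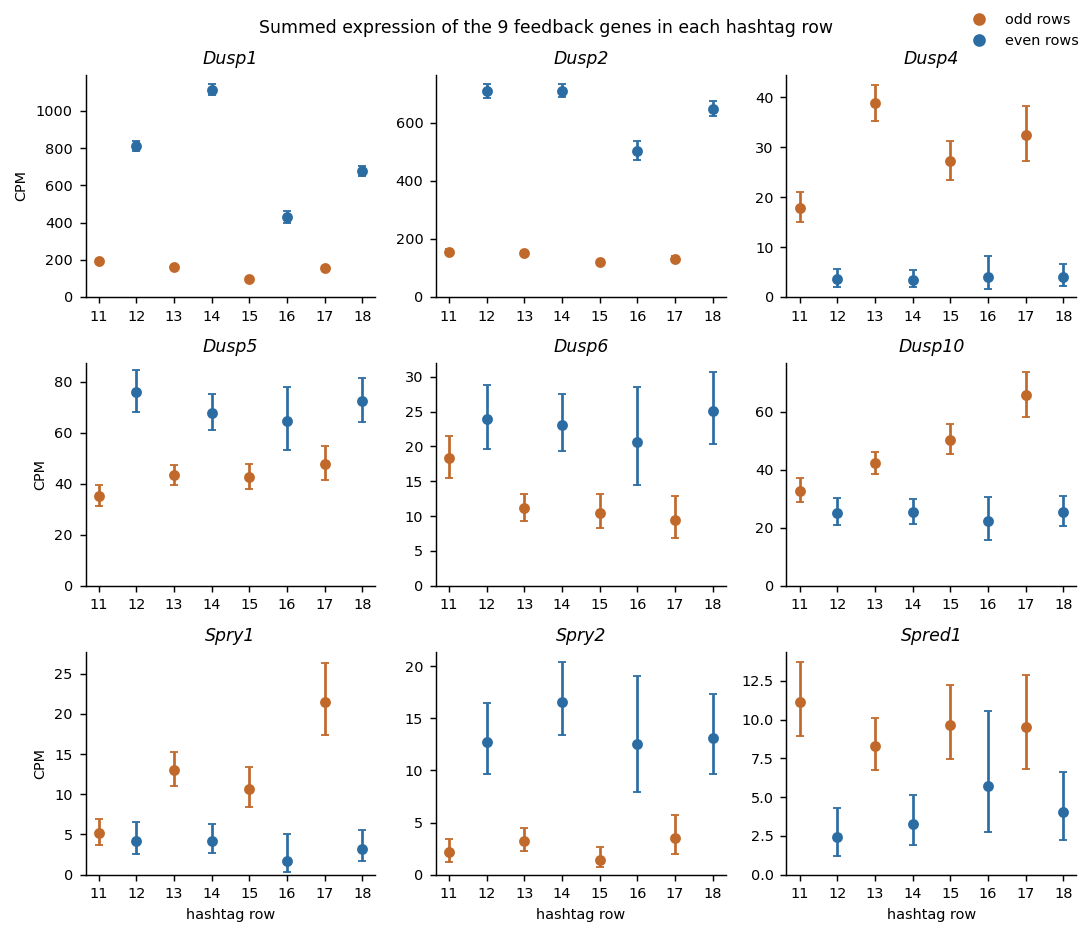
CPM (vertical axis, from 0, a scale of its own for each gene) of the 9 members in the hashtag rows 11 to 18 (horizontal axis), summed over the cells of a row, with exact 95% Poisson intervals as bars. Dusp1 and Dusp2 lay far above the odd rows (orange) in every even row (blue), Dusp4 far below, and Dusp6 came close in rows 11 and 16.

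Dusp1 (ENSMUSG00000024190, chr17:26505591-26508472) encodes the nuclear phosphatase MKP-1. It had 193, 160, 97.8 and 154 CPM in rows 11, 13, 15 and 17 and 809, 1115, 430 and 677 CPM in rows 12, 14, 16 and 18. The lowest even row, 16, was 2.23-fold above the highest odd row, 11, and the medians differed 4.73-fold. The even rows differed among themselves by more than their intervals: 430 CPM in row 16 had an interval from 400 to 462, and 1115 CPM in row 14 from 1087 to 1143. Dusp1 belongs to the genes that respond to tissue handling, and such genes varied over the same rows. Fos had 366, 604, 164 and 366 CPM and Hspa1a 803, 978, 185 and 308 CPM in rows 12, 14, 16 and 18, so row 16 was the lowest and row 14 the highest for all 3 genes. The ranges of Fos and Hspa1a in the odd rows, 251 to 556 and 225 to 665 CPM, overlapped those of the even rows, but Junb, of the same list, had 257 to 438 CPM in the odd and 1020 to 1716 CPM in the even rows, 4.61-fold apart by the medians, and so separated the row numbers as Dusp1 did. The summed level of the 7 listed handling genes was 1674 to 3599 CPM in the odd and 2398 to 6585 CPM in the even rows. Their part in the Dusp1 values was not tested.

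Dusp2 (ENSMUSG00000027368, chr2:127336159-127338377), also known as PAC-1, encodes a nuclear phosphatase of activated lymphocytes. It had 156, 150, 119 and 130 CPM in rows 11, 13, 15 and 17 and 709, 709, 503 and 647 CPM in rows 12, 14, 16 and 18. The medians differed 4.84-fold, and the lowest even row was 3.22-fold above the highest odd row. The even rows were closer together than for Dusp1, with row 16 again the lowest.

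More cells held these transcripts, and the cells that did held more of them. With every cell thinned to 2000 UMIs, which left out 552 even and 216 odd cells, Dusp1 was detected in 57.1% of the even cells and 22.0% of the odd cells, with a mean of 2.34 and 1.35 UMIs in the cells with it. The shares of Dusp2 were 55.5% and 21.6%, with 1.89 and 1.41 UMIs. Without thinning, the shares were 69.7% and 47.6% for Dusp1 and 68.7% and 45.9% for Dusp2. As a gauge of free RNA in the droplets, 3.46% of the thinned even cells held a UMI of the B cell gene Cd79a and 1.51% of the thinned odd cells one of Klrb1c. Cd79a had 3269 CPM in the odd-row cells with at least 2 of its UMIs, and Klrb1c had 537 CPM over the even rows. For members far less abundant than these, a share under the gauge does not tell whether their UMIs were free RNA.

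Dusp5 (ENSMUSG00000034765, chr19:53529145-53541809) and Dusp6 (ENSMUSG00000019960, chr10:99263231-99267489) encode the phosphatases with the strongest preference for ERK. Dusp5 had 35.2, 43.2, 42.8 and 47.7 CPM in rows 11, 13, 15 and 17 and 76.1, 67.8, 64.7 and 72.4 CPM in rows 12, 14, 16 and 18, a 1.63-fold difference of the medians. Dusp6 had 18.3, 11.1, 10.5 and 9.49 CPM in the odd rows and 23.9, 23.1, 20.6 and 25.1 CPM in the even rows, a 2.18-fold difference. For Dusp6 the intervals of row 11 (15.4 to 21.5) and row 16 (14.4 to 28.5) overlapped. When cells with Cd79a, Cst3 or Rag1 were left out of all rows, an alternative chosen only after values had been seen, both genes overlapped between row numbers, and the log2 ratio of Dusp5 went from 0.70 to -0.026 and that of Dusp6 from 1.12 to 0.88. With cells thinned to 2000 UMIs the rows of both genes overlapped as well, at log2 ratios of 0.37 and 0.44.

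Spry2 (ENSMUSG00000022114, chr14:105891947-105896819), which encodes an inhibitor of growth factor signaling to Ras, was the Sprouty gene of the even rows. It had 2.13, 3.25, 1.42 and 3.47 CPM in rows 11, 13, 15 and 17 and 12.7, 16.6, 12.6 and 13.1 CPM in rows 12, 14, 16 and 18, a 4.80-fold difference of the medians. These levels rest on 10 to 38 UMIs per odd row and 22 to 92 per even row. Of the thinned cells, 2.23% of the even and 0.595% of the odd cells held a UMI. Both shares were under the gauge, which rests on far more abundant genes and does not tell whether the Spry2 UMIs were free RNA.

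Dusp4 (ENSMUSG00000031530, chr8:34807610-34819894), which encodes the nuclear phosphatase MKP-2, had the widest difference of the members. It had 17.8, 38.8, 27.2 and 32.4 CPM in rows 11, 13, 15 and 17 and 3.51, 3.43, 4.01 and 4.01 CPM in rows 12, 14, 16 and 18. The medians were 7.94-fold apart, and the lowest odd row, 11, was 4.44-fold above the highest even row. The 7 to 19 UMIs of each even row put Dusp4 in 0.461% of the thinned even cells, against 5.68% of the odd cells. The even share was under the gauge, which does not tell whether these Dusp4 UMIs were free RNA.

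Spry1 (ENSMUSG00000037211, chr3:37639947-37644599), the Sprouty gene induced by receptor signals in T cells, was higher in the odd rows. It had 5.14, 12.99, 10.6 and 21.5 CPM in rows 11, 13, 15 and 17 and 4.17, 4.16, 1.72 and 3.21 CPM in rows 12, 14, 16 and 18. The medians were 3.21-fold apart, but row 11, with an interval of 3.69 to 6.97, was not separated from the even rows beyond counting error. Row 11 was thus the lowest odd row for Dusp4, Dusp5, Dusp10 and Spry1 and the highest for Dusp1, Dusp2, Dusp6 and Spred1. It also had the highest summed level of myeloid markers, 9036 CPM, whose part in these values was not tested. Without row 11, the same 5 members were above and the same 4 below.

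Spred1 (ENSMUSG00000027351, chr2:117121071-117182279), which binds neurofibromin and holds it at the membrane against Ras, had 11.2, 8.29, 9.64 and 9.49 CPM in rows 11, 13, 15 and 17 and 2.41, 3.25, 5.72 and 4.01 CPM in rows 12, 14, 16 and 18. The medians were 2.63-fold apart, and the 10 UMIs of row 16 gave an interval up to 10.5 that covered 3 of the odd rows. Dusp10 (ENSMUSG00000039384, chr1:184034381-184075636), encoding the JNK and p38 phosphatase MKP-5, had 32.8, 42.3, 50.5 and 65.8 CPM in the odd rows and 25.2, 25.5, 22.3 and 25.4 CPM in the even rows, a 1.83-fold difference. The even rows of Dusp10 did not differ beyond their intervals, whereas the odd rows spanned a range of their own.

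The odd rows held several kinds of cells, and the members differed between them. A cell was put in the first group that matched: Cd79a cells with at least 2 Cd79a UMIs (810 cells), Cst3 cells with at least 5 Cst3 UMIs (972), Rag1 cells with at least 1 Rag1 UMI (418), Ikzf2 cells with at least 2 Ikzf2 UMIs (1106) and the rest (943). Of the marker lists, the B cell list had all 7 of its genes highest in the Cd79a cells, the myeloid list 6 of 7 in the Cst3 cells and the list for double-positive thymocytes 7 of 8 in the Rag1 cells. The list for stage 0 iNKT cells had 6 of 9 genes highest in the Ikzf2 cells, with Egr2, a factor downstream of the T cell receptor, at 45.6 CPM and Tnfrsf9 at 224 CPM. Each of these lists holds the gene that defines its group, whose place was fixed by the rule. The defining iNKT genes were low there, at 0.728 CPM for Trav11 and 14.1 CPM for Zbtb16 against 63.5 and 94.1 CPM in the even rows, so the group is called by Ikzf2, the gene of Helios, and given no cell type. The median UMI counts per cell were 6003 for Cd79a cells, 10487 for Cst3 cells, 13562 for Rag1 cells, 5518 for Ikzf2 cells and 4159 for the rest. In the Rag1 cells of row 11 it was 3685, against 14409 to 15274 in those of the other odd rows.

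**Figure D2:**
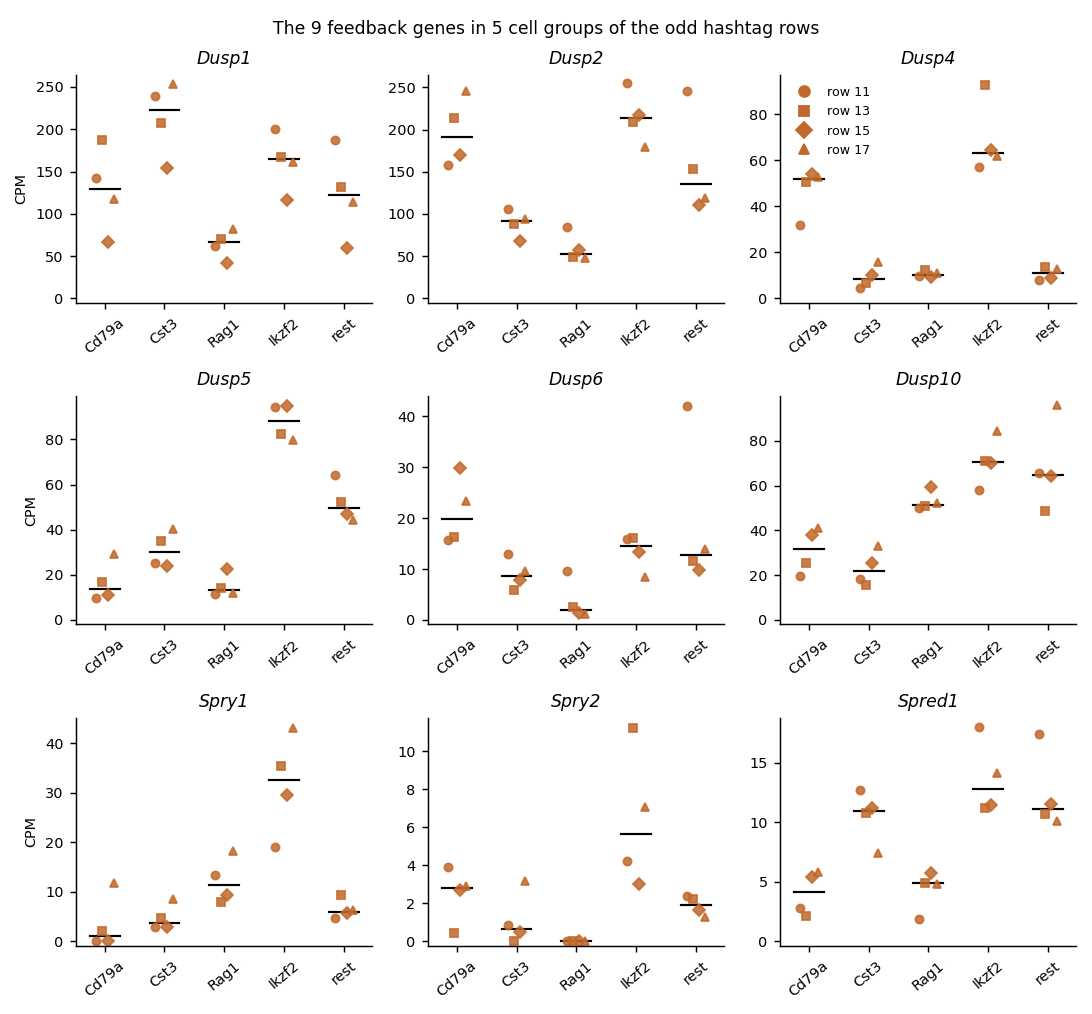
CPM (vertical axis, a scale of its own for each gene) of the 9 members in 5 cell groups of the odd rows (horizontal axis), with 1 point for each of the rows 11, 13, 15 and 17 and the median of the 4 rows as a line. Dusp4, Dusp5 and Spry1 were highest in the Ikzf2 cells, Dusp1 had its highest median in the Cst3 cells, and the Rag1 cells were low for most members.

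Dusp4 was carried by the Ikzf2 and the Cd79a cells. Its level was 57.1, 92.9, 64.7 and 62.0 CPM in the Ikzf2 cells of rows 11, 13, 15 and 17 and 31.9, 50.8, 54.2 and 52.7 CPM in the Cd79a cells, so the values of these groups did not overlap. Their intervals did in row 15 (53.0 to 78.2 and 38.7 to 73.8 CPM) and in row 17 (49.8 to 76.4 and 31.2 to 83.2 CPM). The rest (7.92 to 13.8 CPM), the Rag1 cells (9.39 to 12.2) and the Cst3 cells (4.62 to 15.9) came next and overlapped one another. The Ikzf2 cells were above the rest in all 4 rows, with medians 5.85-fold apart.

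Spry1 was highest in the Ikzf2 cells. It had 19.04, 35.4, 29.6 and 43.0 CPM there, with no other group above 18.2 CPM in any row. In row 11 the intervals of the Ikzf2 cells (11.3 to 30.1 CPM, on 18 UMIs) and the Rag1 cells (5.41 to 27.7 CPM, on 7 UMIs) overlapped. The Rag1 cells followed with 7.93 to 18.2 CPM, the rest had 4.75 to 9.37, the Cst3 cells 2.88 to 8.50 and the Cd79a cells 0 to 11.7. The median in the Ikzf2 cells was 5.39-fold that of the rest and 2.85-fold that of the Rag1 cells. Of the thinned Ikzf2 cells 6.17% held Spry1, against 0.126% to 0.771% in the other groups.

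Dusp5 had 94.1, 82.4, 94.9 and 79.7 CPM in the Ikzf2 cells of rows 11, 13, 15 and 17, a range above that of the even rows as a whole (64.7 to 76.1 CPM). The rest followed with 44.2 to 64.1 CPM and the Cst3 cells with 23.8 to 40.4, while the Cd79a cells (9.52 to 29.3) and Rag1 cells (11.5 to 22.4) overlapped. Dusp5 was thus lower in the groups of B cell, myeloid and double-positive markers than in the Ikzf2 cells and the rest.

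Dusp1 and Dusp2 were ordered differently. Dusp1 was highest in the Cst3 cells of each row, at 239, 207, 154 and 254 CPM in rows 11, 13, 15 and 17. Next by the median were the Ikzf2 cells, at 200, 167, 117 and 161 CPM. The Cd79a cells had 142, 187, 66.4 and 117 CPM, above the Ikzf2 cells in row 13, and the rest had 188, 131, 59.2 and 114 CPM. The summed level of the 7 handling genes was 4177 CPM in the Cst3 cells, 3205 CPM in the Cd79a cells and 1563 CPM in the Ikzf2 cells. Over the pooled odd rows, Hspa1a, Hspa1b and Atf3 were higher in the Cst3 than in the Cd79a cells, at 902 against 328, 982 against 458 and 135 against 19.3 CPM. Fos, Jun, Junb and Dnajb1 were lower, at 728 against 755, 691 against 735, 447 against 526 and 290 against 385 CPM. The part of these genes in the Dusp1 values was not tested. Dusp2 had its highest medians in the Ikzf2 cells, at 255, 209, 218 and 179 CPM, and in the Cd79a cells, at 159, 214, 169 and 246 CPM, groups that overlapped. The rest had 246, 153, 110 and 119 CPM, so in row 11 it was above the Cd79a cells and close to the Ikzf2 cells. The Cst3 cells (67.9 to 106 CPM) and the Rag1 cells (48.4 to 84.5 CPM) were lower in all 4 rows. No group of the odd rows reached the lowest even row for either gene, 430 CPM for Dusp1 and 503 CPM for Dusp2.

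Spry2 was low in all groups of the odd rows. It had 4.23, 11.2, 3.02 and 7.05 CPM in the Ikzf2 cells, on 51 UMIs in all, and 0 to 3.92 CPM in any row of the other groups. No UMI of Spry2 was found in the Rag1 cells, which allows up to 0.687 CPM (3 counts over the group), so the pooled level of the Ikzf2 cells, 7.42 CPM, was at least 10.8-fold higher. Dusp6 had its highest median in the Cd79a cells, 19.9 CPM, then in the Ikzf2 cells, 14.6 CPM, and the rest, 12.7 CPM, and these 3 groups overlapped. The rest of row 11 stood apart for Dusp6, at 42.0 CPM against 9.86 to 13.9 CPM in the other odd rows.

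Dusp10 was shared by the Ikzf2 cells, the rest and the Rag1 cells. The Ikzf2 cells had 58.2 to 84.6 CPM, the rest 48.6 to 95.9 CPM and the Rag1 cells 49.9 to 59.2 CPM, which overlapped, and the Cd79a cells (19.6 to 41.0) and Cst3 cells (15.4 to 33.0) were lower in every row than the Ikzf2 cells. Spred1 had 11.2 to 17.98 CPM in the Ikzf2 cells, 10.1 to 17.4 CPM in the rest and 7.44 to 12.7 CPM in the Cst3 cells, and less in the Cd79a cells (2.10 to 5.85 CPM) and Rag1 cells (1.92 to 5.78 CPM).

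Counted over the members, the Ikzf2 cells were above the rest in all 4 odd rows for 6 of 9 (Dusp1, Dusp2, Dusp4, Dusp5, Spry1 and Spry2), where 18.8% of all genes tested were, and below it for 0 of 9, where 15.6% were. Against the Rag1 cells all 9 members were above in all 4 rows, with a background of 31.5%, and the difference was smallest for Dusp10, 1.37-fold. Against the Cst3 cells, 7 members were above (background 52.6%) and Dusp1 was below (background 18.9%). Against the Cd79a cells, 6 were above (Dusp4, Dusp5, Dusp10, Spry1, Spry2 and Spred1), close to the background of 56.6%, and 0 below. Spry2, at a mean under 5 CPM, was counted here though it is not among the genes of the background. Other members met that minimum only through the Ikzf2 cells, in which they were high. Against the Rag1 cells these were Dusp6 and Spred1, with medians of 1.94 and 4.86 CPM in the Rag1 cells. Against the Cst3 cells it was Spry1 (3.77 CPM there), and against the Cd79a cells Spry1 and Spred1 (1.05 and 4.11 CPM there). With cells thinned to 2000 UMIs, 5 members were above the Rag1 cells in all rows and 4 above the rest. Dusp1 was then no longer below the Cst3 cells in all rows. A level summed over a group does not tell more transcripts per cell from more cells with them.

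Among the Ikzf2 cells, the CPM of most members was lower in cycling than in noncycling cells. Cells with at least 2 UMIs over Mki67, Top2a, Birc5, Ube2c and Ccnb2 were called cycling (459 cells) and those with none noncycling (397 cells). In all 4 odd rows, 7 of 9 members had lower CPM in the cycling cells, against 28.5% of all genes tested, and 0 of 9 were higher, against 19.5%. Spry2, with medians of 3.86 CPM in the cycling and 8.28 CPM in the noncycling cells, met the minimum of 5 CPM through the latter. Dusp4 had 27.0, 72.7, 48.2 and 46.7 CPM in the cycling cells of rows 11, 13, 15 and 17 and 140, 133, 90.9 and 94.3 CPM in the noncycling cells, with medians 2.40-fold apart. Spry1 had 6.74, 19.9, 22.7 and 23.9 CPM and 37.3, 56.6, 48.3 and 83.4 CPM, 2.46-fold apart. Dusp1, Dusp2, Dusp5 and Dusp10 were between 1.57-fold and 1.79-fold lower, and Spry2 was 2.15-fold lower on 19 and 17 UMIs. Dusp6 was lower in 3 rows and Spred1 in 2.

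The cycling cells held more RNA, with a median of 11085 UMIs per cell against 4238. CPM is a share of this total, so a lower CPM does not show fewer transcripts per cell. Over the 459 cycling and 397 noncycling cells, Dusp1 had 531 and 321 UMIs, Dusp2 763 and 389 and Dusp4 238 and 175. Dusp5 had 289 and 161, Dusp10 251 and 146, Spry1 85 and 85 and Spry2 19 and 17. Per cell, the DUSP genes named here thus had more UMIs in the cycling cells, and Spry1 and Spry2 fewer. Ikzf2 itself, whose minimum of 2 UMIs defines the group, was 652 CPM in the cycling and 1887 CPM in the noncycling cells, and its part in the member values was not tested. Nr4a1, a receptor-induced gene that the rule did not use, had medians of 237 and 643 CPM. With cells of over 4000 genes left out, 3 members remained lower in all rows, Dusp1, Dusp10 and Spry1.

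**Figure D3:**
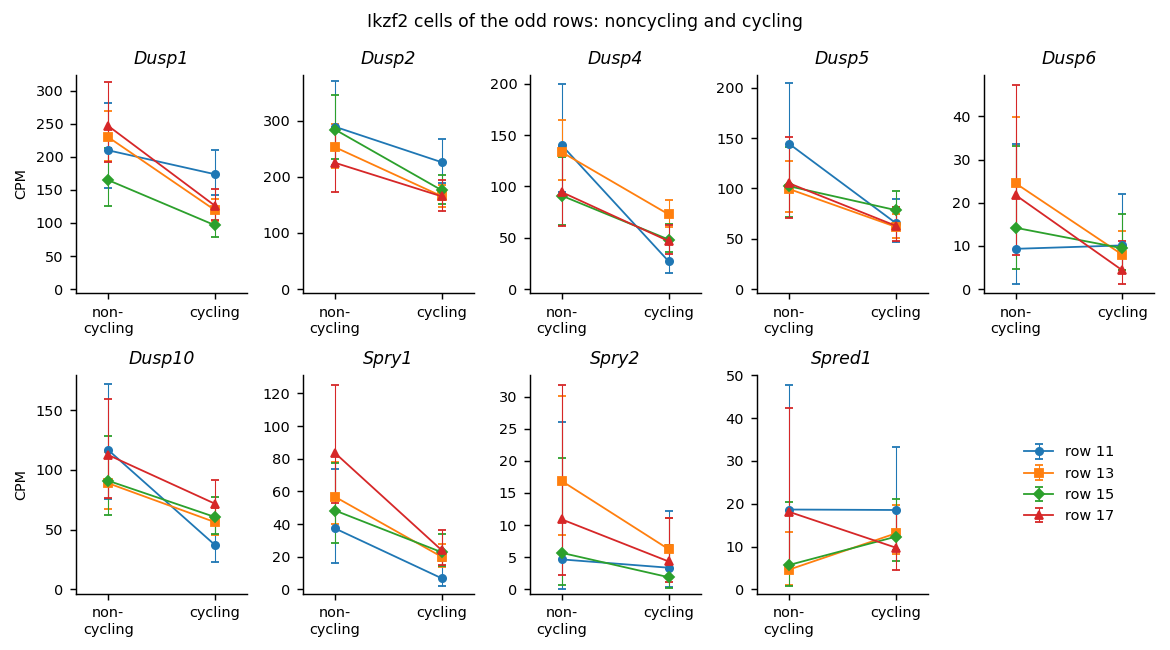
CPM (vertical axis, a scale of its own for each gene) of the 9 members in noncycling and cycling Ikzf2 cells (horizontal axis), with a line for each of the odd rows and exact 95% Poisson intervals as bars. The lines of Dusp1, Dusp2, Dusp4, Dusp5, Dusp10, Spry1 and Spry2 went down in all 4 rows, and those of Spred1 went both ways.

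Within the Ikzf2 cells 6 of 9 members also followed Nr4a1, the gene of Nur77, which is induced within hours of a receptor signal. This split was chosen after the data had been seen. Cells with at least 2 Nr4a1 UMIs (335 cells, median of 5557 UMIs) were set against cells with none (607 cells, 5524 UMIs), groups of like depth. Ikzf2 itself was higher in the Nr4a1 cells in all 4 rows, at medians of 1435 and 896 CPM, and its part in the member values was not tested. In all 4 odd rows, 6 of 9 members were higher in the Nr4a1 cells (Dusp1, Dusp2, Dusp4, Dusp5, Spry1 and Spry2), against 10.9% of all genes tested, and 0 were lower, against 14.5%. Spry2, with medians of 11.9 and 2.07 CPM, met the minimum of 5 CPM through the Nr4a1 cells, in which it was high.

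Dusp4 had 85.4, 203, 135 and 125 CPM in the Nr4a1 cells of rows 11, 13, 15 and 17 and 50.8, 32.4, 32.7 and 33.1 CPM in the cells without it, 3.94-fold apart by the medians. Dusp5 had 213, 167, 202 and 150 CPM against 63.5, 43.6, 61.3 and 48.4 CPM, 3.37-fold apart, with no overlap between the groups. Spry1 was 2.49-fold, Dusp2 1.68-fold and Dusp1 1.37-fold higher by the medians, and Spry2 was 5.75-fold higher on 26 and 13 UMIs. Dusp6 (12.8 and 14.5 CPM), Dusp10 (83.4 and 61.8 CPM) and Spred1 (15.5 and 10.5 CPM) did not move one way in all rows.

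The Nr4a1 cells cycled less, with a median of 357 CPM of Mki67 against 611 CPM. Within the noncycling Ikzf2 cells, in the 3 rows with at least 20 cells in both groups, Dusp4, Dusp5, Dusp10 and Spry1 were still higher in all of them, against 12.9% of all genes, with medians 4.96-fold, 2.85-fold, 1.21-fold and 3.04-fold apart. Dusp6 was lower in all 3, against 15.3% of all genes, and Dusp1, Dusp2 and Spred1 were higher in 1 row and lower in 2. Spry2 was higher in 2 rows and lower in 1, at medians of 7.09 and 8.54 CPM on 7 and 6 UMIs. The depths differed in this subset, with medians of 4989.5 UMIs in the Nr4a1 cells and 3914.5 UMIs in the cells without it. Of the ERK-induced early genes, Egr1, Egr2 and Fos were set against this split in all Ikzf2 cells. Egr1 had medians of 512 and 64.3 CPM and Egr2 105 and 14.5 CPM, both higher in all 4 rows, whereas Fos had 205 and 170 CPM and was higher in 2 rows and lower in 2. In the noncycling Ikzf2 cells Fos was lower in all 3 rows, at 182 and 308 CPM. The handling genes Jun and Hspa1a had 209 and 388 CPM and 122 and 227 CPM in all Ikzf2 cells.

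**Figure D4:**
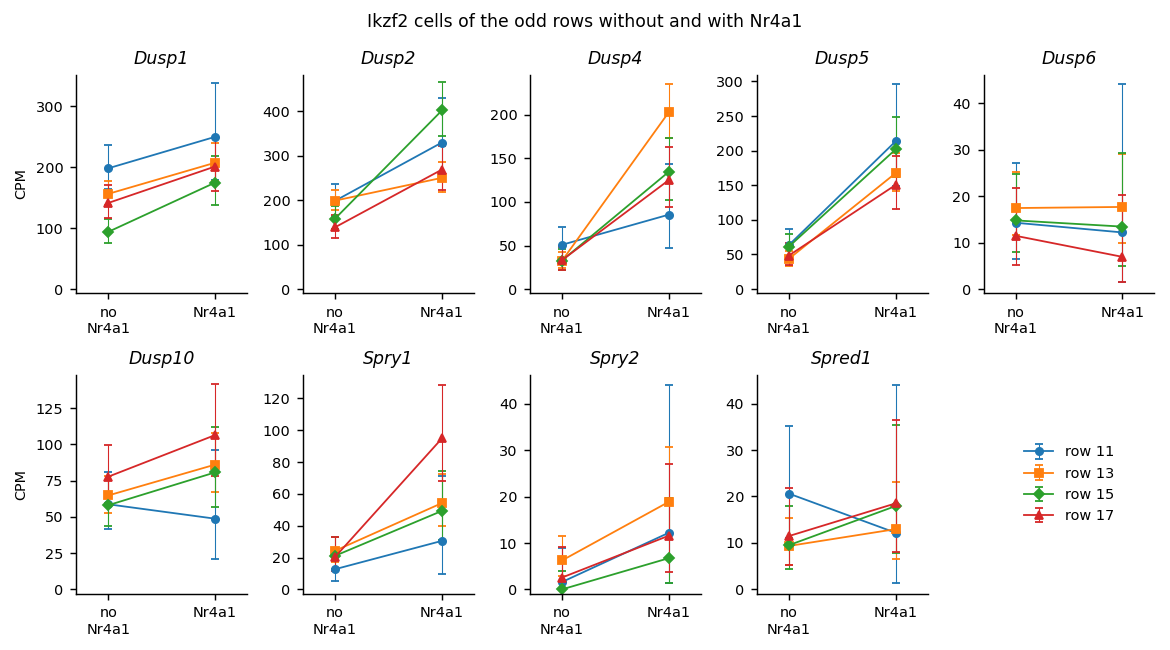
CPM (vertical axis, a scale of its own for each gene) of the 9 members in Ikzf2 cells without Nr4a1 and with at least 2 Nr4a1 UMIs (horizontal axis), with a line for each odd row and exact 95% Poisson intervals as bars. Dusp4, Dusp5 and Spry1 went up in all 4 rows, Dusp5 with no overlap between the groups, and Dusp6 stayed level or went down except in row 13.

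In the even rows, the members differed little between cells with at least 3 UMIs of Ccl5, a chemokine of effector cells, and no Izumo1r (1054 cells) and cells with Izumo1r and no Ccl5 (1225 cells). Spry2 was higher in the Ccl5 cells of all 4 even rows, at 16.4, 23.0, 15.4 and 11.8 CPM in rows 12, 14, 16 and 18 against 7.39, 15.5, 8.79 and 10.4 CPM, with a background of 9.49%. Dusp5 was lower in all 4 rows, at 70.5, 61.9, 46.2 and 75.0 CPM against 87.5, 77.3, 74.7 and 80.3 CPM, with a background of 12.2%. Spry1 was also lower in all 4 rows, on 6 and 22 UMIs. Spry1, Dusp4 and Spred1 had a mean under 5 CPM in this comparison and are not among the genes of the background. Dusp1 was above in 2 rows and below in 2, at medians of 772 and 806 CPM, and Dusp2 was lower in 3 rows, at 596 and 731 CPM. With thinned cells, Spry2 was no longer higher in all rows. Without row 16, Dusp2 and Spred1 were also lower in all remaining rows, and without row 18, Dusp4 and Dusp6 were, which makes 4 members in either case with Spry1 counted.

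Dusp1 was higher in even-row cells with at least 3 Fos UMIs (872 cells) than in cells with none (2999 cells), a split that was also chosen after the data had been seen. It had 981, 1611, 684 and 1045 CPM in the Fos cells of rows 12, 14, 16 and 18 and 717, 822, 380 and 494 CPM in the cells without Fos, 1.67-fold apart by the medians. Dusp10 was above in all 4 rows too, at 1.04-fold, which makes 2 of 9 members against 4.96% of all genes, and Dusp5 was below, against 9.99%. Dusp2 did not follow, at medians of 608 and 657 CPM, above in 1 row. The handling gene Hspa1a was 786 and 457 CPM in the same cells. Row 16 held 22 Fos cells. The part of the handling genes in the Dusp1 values of these cells was not tested.

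Of the other genes of the MAP kinase pathway, 73 on 7 lists were tested, of which 24 had all even rows above and 9 had all even rows below the odd rows, against the 27.9% and 30.5% of all genes. The lower count depended on the settings, with 16 below without row 11 and 20 below with the Cd79a, Cst3 and Rag1 cells left out. The lists are not independent of earlier results of these data. Of 9 tested DUSP genes that are no members, Dusp7, a cytoplasmic ERK phosphatase, had 13.9 to 14.4 CPM in the odd rows and 53.5 to 64.2 CPM in the even rows, a log2 ratio of 2.02, and Dusp22, a phosphatase that restrains receptor signals, had 11.6 to 20.4 and 3.21 to 6.29 CPM, a log2 ratio of -1.95. Dusp11 and Dusp12 were above with ratios of 0.82 and 0.18. Spred2, the one tested gene of the other Sprouty and Spred genes, overlapped between the rows, at 13.2 to 28.0 and 19.7 to 25.4 CPM.

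The kinases of the ERK cascade were nearly level, with a median log2 ratio of -0.06 over 18 genes, 4 above and 2 below. Map2k1, the gene of MEK1, had 58.1 to 86.1 CPM in the odd and 61.1 to 66.7 CPM in the even rows, which overlapped. Of 9 tested Ras inhibitors, 6 were above and 1 below, with a median log2 ratio of 0.63. Among them, Dok2, an adaptor that recruits RasGAP, had a ratio of 2.51, Rasal3, a RasGAP of leukocytes, 1.53, Rasa3 1.41 and Rasa1 1.41, while Nf1, the gene of neurofibromin and the partner of Spred1, was below with -0.90.

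The early genes that ERK induces mostly overlapped between the row numbers. Of 16 tested, 4 were above and 2 below, against 27.9% and 30.5% of all genes. Egr3, Fosl2, Ier2 and Ier5 were above, with log2 ratios of 1.70, 2.77, 1.21 and 1.33, and Nr4a1 and Nr4a3 were below, with -2.98 and -0.65, whereas Egr1, Egr2, Fos and Myc overlapped. The list of nuclear targets had 4 of 10 above and 1 below, with Ets1 at 1.37, and the JNK and p38 list 3 of 10 above and 2 below, with Mapk11 at -1.78.

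**Figure D5:**
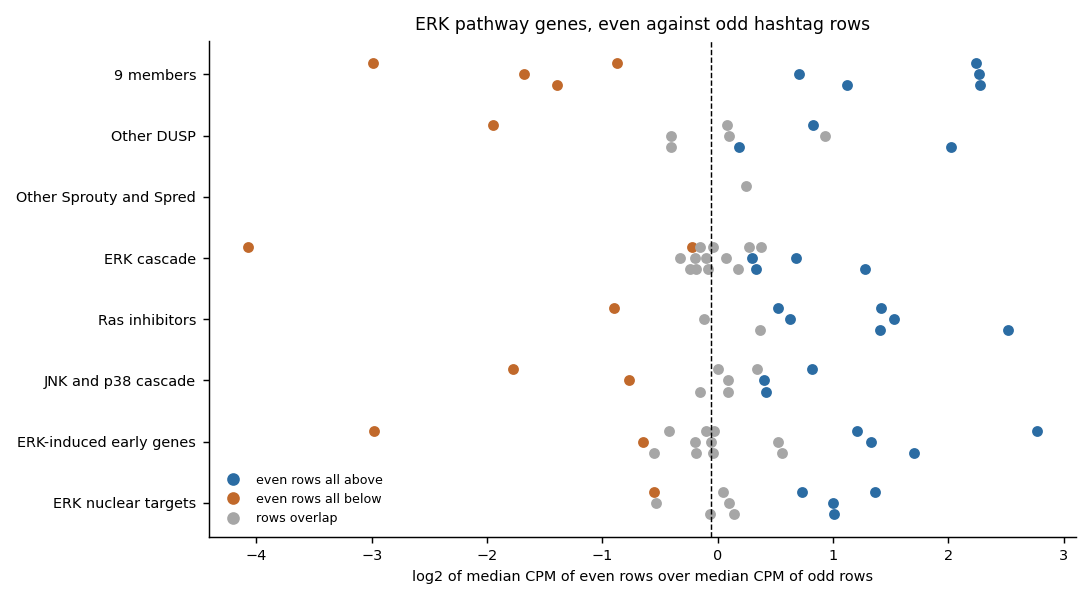
Log2 ratio of the median CPM of the even rows to that of the odd rows (horizontal axis) for the members and for each tested gene of the 7 pathway lists (vertical axis; height within a list has no meaning), blue where all even rows lay above, orange where all lay below and gray where rows overlapped, with the median of all genes as a dashed line. The members run from -2.99 for Dusp4 to 2.28 for Dusp2, and most ERK cascade genes lie near the line, apart from Rasgrp4 at -4.07, which lies beyond all members, as Fosl2 at 2.77 and Dok2 at 2.51 do on the other side.

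Over 24 units, the 4 even rows and the 5 cell groups of each odd row, members that were high in the same units could be listed by Pearson correlation of log2(CPM + 10). The units share 1 library and, in the odd rows, their pools, so these are descriptions. Among the members, Dusp2 and Spry2 were most alike (r = 0.87), followed by Dusp1 and Dusp2 (0.80), Dusp2 and Dusp6 (0.79) and Dusp1 and Spry2 (0.79), and Dusp1 and Dusp10 were least alike (-0.53). Spry1 was closest to Dusp10 (0.69) and then to Dusp4 (0.54).

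Of 6513 genes that reached 50 CPM in a unit, those most like Dusp1 were Pitpnm1 (0.94), Iffo2 (0.94) and Lats2 (0.93), and those most like Dusp2 were Arhgap45 (0.97), Jak1 (0.96) and Ndfip1 (0.96). Those most like Dusp4 were Sox5 (0.95), Fcrl1 (0.93) and Cd200 (0.90), and for Spry1 they were Ikzf2 (0.92), which defines a group of these units, Slc7a1 (0.90) and Lrmp (0.88). Spry2 was most like Il2rb (0.93), Ctsw (0.92) and Pde2a (0.92), and Dusp5 most like Inpp5b (0.93), Wdr26 (0.92) and Nab2 (0.91). Dusp10 was closest to Msi2 (0.93), Rhoh (0.91) and Id3 (0.90), Dusp6 to Nfkbid (0.87), Nedd9 (0.86) and Arid5a (0.86), and Spred1 to Angpt1 (0.86), Kit (0.86) and Igfbp4 (0.85).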

How the data were processed

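The deposited values are raw UMI counts for each gene or hashtag and barcode, which the authors made by running Cell Ranger 6.0.0 on a prebuilt mm10 reference. Seurat is also named in the submitters' processing notes. The files hold 1 matrix for the mRNA and the hashtag library.

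Cells were kept and assigned to hashtag rows and cell groups by the limits given in the report, with a hashtag row holding at least 80% of the UMIs on rows 11 to 18. Barcodes with mixed hashtags or with fewer than 10 hashtag UMIs were thereby left out (2140 barcodes together), and no other doublet caller or correction for free RNA was used. CPM were taken over 23676 genes, after 87 ribosomal and 8522 Gm genes were removed. Groups in a row needed 20 cells and tested genes a mean of 5 CPM over the groups compared. Since hashtag rows were not mapped to populations, no model or test was fitted. A row was counted as above or below only where no row overlapped, or where a group was above or below in every row.

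The self-test drew Poisson counts at the real row totals with a seeded set of changed genes. Scripts used Python 3.11.15, numpy 2.4.6, scipy 1.17.1 and pandas 2.3.3, and edgeR 4.0.16 in R 4.3.3 gave TMM factors for an alternative. The genes named are the 9 members, Kidins220, the genes of the cell rule, the pathway and marker lists, and the 3 genes most like each member. The members and lists were chosen with earlier results of these data known. Alternatives changed the hashtag, gene, mitochondrial and Ikzf2 limits, the gene total, the minimum CPM, the depth by thinning and the scaling, or left out each row in turn. Promoter windows and gene positions are from RefSeq, GRCm38.p6, and a window for Dusp4 was not used here. The values of 1 gene of the pathway lists are not reported here.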

Additional observations from a re-analysis of the deposited data

Results flagged for a closer look

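Of 63 sets of 4 rows (each member in the odd rows, the even rows and each cell group of the odd rows), 5 had a row that stood apart from the other 3 by the gap to its nearest neighbor relative to the whole range. Chance gives about 1 in 20 such sets.

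Dusp6 in the rest of the odd rows was 42.0 CPM in row 11 against a median of 11.6 CPM in the other rows, and in the Rag1 cells it was 9.60 CPM in row 11 against 1.44 CPM. Dusp4 in the Cd79a cells was 31.9 CPM in row 11 against 52.7 CPM. In the even rows, Dusp10 was 22.3 CPM in row 16 against 25.4 CPM, and Spry2 was 16.6 CPM in row 14 against 12.7 CPM.

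Outside the 8 hashtag rows in use, row 1 held 12255 UMIs and row 4 held 11854 UMIs over all barcodes, while none of the other unused rows held more than 599. These rows entered no comparison of the members.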

How the results depend on the processing

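No paired analysis was possible because the mRNA and hashtag libraries share only replicate number 1 and no hashtag row is mapped to a population. Of 240 counts of genes recomputed under the alternatives, 223 stayed within 1.5 times the reported count and 17 did not. Of 773 ratios of single genes, 645 moved by no more than their counting spread and 127 moved more. A change of direction was counted only for ratios called above or below in all rows in the reported run, and 1 ratio changed so. That was Dusp5 between even and odd rows, with a log2 ratio of -0.026 when Cd79a, Cst3 and Rag1 cells were left out, an alternative added after the data were seen. The cause was not tested.

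Members with all even rows above the odd rows numbered 3 in place of 5 with cells thinned to 2000 UMIs and 3 with the Cd79a, Cst3 and Rag1 cells left out (Dusp1, Dusp2 and Spry2 in both). With thinned cells, 5 in place of 9 members were above in the Ikzf2 against the Rag1 cells, 0 in place of 1 below against the Cst3 cells, and 0 in place of 1 above in the Ccl5 against the Izumo1r cells. Against the Cd79a cells, 1 member in place of 0 (Dusp6) was below with a hashtag limit of 90% of 20 UMIs, with ribosomal and Gm genes kept, with Ikzf2 cells from 1 UMI on, and without row 11 (range of 0 to 1 over the rows left out). Cycling Ikzf2 cells had 3 in place of 7 members below with cells of over 4000 genes left out. The Ccl5 cells had 2 to 4 members below over the rows left out, with 4 without row 16 and 4 without row 18. Of the pathway lists, 15 in place of 9 genes were below with ribosomal and Gm genes kept, 15 with thinned cells, 15 without a minimum CPM and 20 with the Cd79a, Cst3 and Rag1 cells left out, and 9 to 16 over the rows left out, with 16 without row 11.

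Spry1, Spry2 and Spred1 rest on few UMIs in the even rows, and Spry2 in the odd rows, which widens their intervals.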

Other observations

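By Klrb1c, Trav11 and the members alike, the 8 hashtag rows formed separate sets of odd and even numbers. Klrb1c had 8.02, 6.66, 5.95 and 6.02 CPM in rows 11, 13, 15 and 17 and 507, 569, 429 and 576 CPM in rows 12, 14, 16 and 18. Trav11 had 1.00, 0.256, 1.42 and 1.39 CPM in the odd rows and 52.4, 67.2, 59.5 and 73.2 CPM in the even rows. These values were not used to assign a row to a population.

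Kidins220 had 24.1, 26.2, 18.004 and 17.4 CPM in rows 11, 13, 15 and 17 and 37.7, 46.4, 22.9 and 26.5 CPM in rows 12, 14, 16 and 18. Junb, of the handling list, had 1647, 1716, 1020 and 1293 CPM in the even rows, in which row 14 was the highest and row 16 the lowest, as they were for Dusp1.

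Nr4a1 and Dusp1 lay on opposite sides in the row numbers. Nr4a1 had 74.1, 128, 142 and 176 CPM in rows 11, 13, 15 and 17 and 12.9, 21.0, 13.2 and 39.3 CPM in rows 12, 14, 16 and 18.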
